A study of Homo sapiens with 24 samples.

Results

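Mitosis is driven by a set of genes that cells switch on together in G2 and M phase. Kinetochore proteins tie the chromosomes to microtubules, motor and microtubule-binding proteins build the spindle, and kinases, cyclins and the anaphase-promoting complex (APC) time the steps, with the spindle checkpoint holding the APC until every kinetochore is attached. Many of these genes are repressed in resting cells by the DREAM complex and switched on by MuvB, MYBL2 and FOXM1 through a promoter element called the CHR, often beside CCAAT boxes bound by NF-Y. The genes described here are 53 such G2/M genes, taken from a list of names and kept where a single-symbol probe set measured them. That left 52 of the 18417 genes measured, and CENPA was left out because its probe set carries more than 1 gene symbol. They were sorted by role into spindle and kinetochore structure genes (23 of 24 measured), mitotic kinases, cyclins, checkpoint and APC regulators (19 of 19), and chromosome, passenger complex, cytokinesis and FOXM1 genes (10 of 10).

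RNA was measured on 24 Affymetrix Human Gene ST arrays from THP-1, a human monocytic leukaemia line in culture, in 6 groups of 4 arrays: a NOD1 line with and without doxycycline (DOX), an NLRP4 line with and without DOX, and a vector line with and without DOX. NOD1 and NLRP4 are NOD-like receptors, and NOD1 senses fragments of bacterial peptidoglycan. Every line was made by lentiviral transduction with the pSLIK vector and selection in G418. In the NOD1 and NLRP4 lines a tetracycline-inducible (TRE) promoter drives a 3X FLAG-tagged coding sequence, and the vector line carries no such sequence. Infection was kept at low copy so that most transduced cells hold a single integration, and each line was 1 stable selected line. Treated wells received 1 µg/ml DOX for 6 h and the others none, at 50000 cells per well. No label says whether wells within a group came from separate cultures, so the p-values cover well-to-well spread alone, and that spread may be technical. The array numbers follow line and DOX: each line occupies its own run, and within it uninduced wells precede DOX wells. Neither line nor DOX can therefore be told apart from array order.

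The induced genes followed the labels. The NOD1 probe set averaged 12.75 ± 0.177 on the log2 scale in the DOX-treated NOD1 line and 8.74 ± 0.186 in the uninduced NOD1 line (SD, n = 4 each), and the NLRP4 probe set 11.93 ± 0.257 in the DOX-treated and 8.09 ± 0.431 in the uninduced NLRP4 line. Before DOX, NOD1 already stood 0.40 above the vector line in the NOD1 line (limma adjusted p = 0.0299). Of the 8 measured monocytic markers, LYZ averaged 13.43, CD68 11.49 and SPI1 9.63 in the uninduced vector line. Of the 8 measured markers of other cells, the T cell marker CD3E averaged 7.15 and the B cell marker MS4A1 6.61 there. The levels of the other markers are not given here, so these levels do not compare the 2 lists. No background level was measured, so presence cannot be read from these values. In the uninduced NOD1 line 6 of 8 measured monocytic markers were called higher than in the vector line, against 13.0% of all genes, CD68 by 1.19 and SPI1 by 0.70. Of 8 markers of other cells 2 were called, against 24.9% of all genes: NKG7 was called higher, by 0.38, and EPCAM lower, with a change of -1.89. The monocytic marker list's median, relative to the uninduced vector mean, ran from 0.22 to 0.43 over the DOX-treated and 0.29 to 0.49 over the uninduced NOD1 arrays, against -0.14 to 0.08 over the uninduced vector arrays. The other-cell list ran from -0.09 to 0.04, from -0.12 to 0.04 and from -0.03 to 0.02 over the same 3 groups. These shifts move with the NOD1 line, and their part in the results below was not tested.

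The promoter letters of the members are described first, since G2/M genes are known for 2 short elements, though they were read after the calls were made. RefSeq promoters of assembly GRCh38.p14, from 250 bases before to 50 after a gene's start, matched 45 of 52 members. The CHR letters TTTGAA, on either strand, lay in 33 (73.3%) of these, against 15.4% of all 27305 promoters. The letters CCAAT, on either strand, lay in 32 (71.1%) against 35.7%, and both in 25 (55.6%) against 6.08%. By role, TTTGAA lay in 18 of 22 structure promoters, 7 of 15 regulator promoters and 8 of 8 promoters of the third group. The 120 bases before the start are shown for 6 members with both elements there, 3 that were higher in the NOD1 line (CDC20, PLK1 and CDCA8) and 3 that were lower (ASPM, HMMR and KIF11), to set the letters of genes that moved in opposite directions side by side. Capitals mark TTTGAA or its reverse complement TTCAAA and CCAAT or its reverse complement ATTGG. Matches overlap in CDCA8, where TTTGAA runs into ATTGG, and in HMMR, where CCAAT runs into ATTGG.
CDC20, chr1:43358861-43358980, plus strand: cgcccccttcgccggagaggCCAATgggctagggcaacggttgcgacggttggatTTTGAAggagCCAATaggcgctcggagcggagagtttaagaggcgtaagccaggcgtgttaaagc
PLK1, chr16:23678769-23678888, plus strand: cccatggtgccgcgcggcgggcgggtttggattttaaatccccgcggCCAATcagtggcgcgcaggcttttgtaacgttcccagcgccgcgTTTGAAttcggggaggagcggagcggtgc
CDCA8, chr1:37692396-37692515, plus strand: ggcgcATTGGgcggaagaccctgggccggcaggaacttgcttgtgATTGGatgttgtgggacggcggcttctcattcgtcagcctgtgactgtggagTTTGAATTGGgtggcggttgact
ASPM, chr1:197146670-197146789, minus strand: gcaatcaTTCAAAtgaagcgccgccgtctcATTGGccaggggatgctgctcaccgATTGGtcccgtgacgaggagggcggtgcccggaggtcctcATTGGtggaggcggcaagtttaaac
HMMR, chr5:163460512-163460631, plus strand: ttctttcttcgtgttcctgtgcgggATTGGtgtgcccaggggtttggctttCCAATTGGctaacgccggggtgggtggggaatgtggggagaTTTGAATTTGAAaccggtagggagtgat
KIF11, chr10:92593010-92593129, plus strand: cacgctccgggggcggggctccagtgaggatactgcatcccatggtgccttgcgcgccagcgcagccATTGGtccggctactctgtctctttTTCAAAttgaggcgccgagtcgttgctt
Both directions are thus found among genes with both elements. Of the members with a promoter here, 22 of 27 that were called lower in the uninduced NOD1 line hold TTTGAA and 3 of 5 that were called higher do. A match is a run of letters, and no binding was measured.

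Spindle and kinetochore structure genes were lower in the NOD1 line than in the vector line, with and without DOX, while most mitotic regulators were not called and a few genes were higher. Values are quantile-normalized log2 signals, changes are on the log2 scale with the NOD1 line over the vector line, and a gene was called at a limma adjusted p under 0.05 over all genes. In the uninduced lines 34 of 52 members were called, 28 lower and 6 higher, against 24.9% of all genes called in either direction, 11.9% lower and 13.0% higher. In the DOX-treated lines 33 were called, 27 lower and 6 higher, against 25.8% of all genes, 12.2% lower and 13.6% higher. Of the 23 structure genes, 16 were called lower and 2 higher in each comparison, with median changes of -0.70 in the uninduced and -0.65 in the DOX-treated lines. Of the 19 regulators, 6 were called lower and 2 higher without DOX, and 5 lower and 2 higher with DOX. Their median change was -0.03 without DOX and -0.09 with DOX. The DOX-treated value stood at 0.01 in the values as deposited, where the median gene stood at -0.08. It stood at 0.06 in arrays centred on their medians, where the median gene stood at -0.035. In centred arrays the uninduced regulator median was -0.14, where the median gene stood at -0.0575. Of the 10 chromosome, passenger, cytokinesis and FOXM1 genes, 6 were called lower and 2 higher in each comparison, with medians of -0.65 and -0.68. The median over all genes was 0.03 without DOX and 0.02 with DOX. In RNA from whole wells, fewer cells in G2 or M phase and less RNA per cell cannot be told apart.

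**Figure D1:**
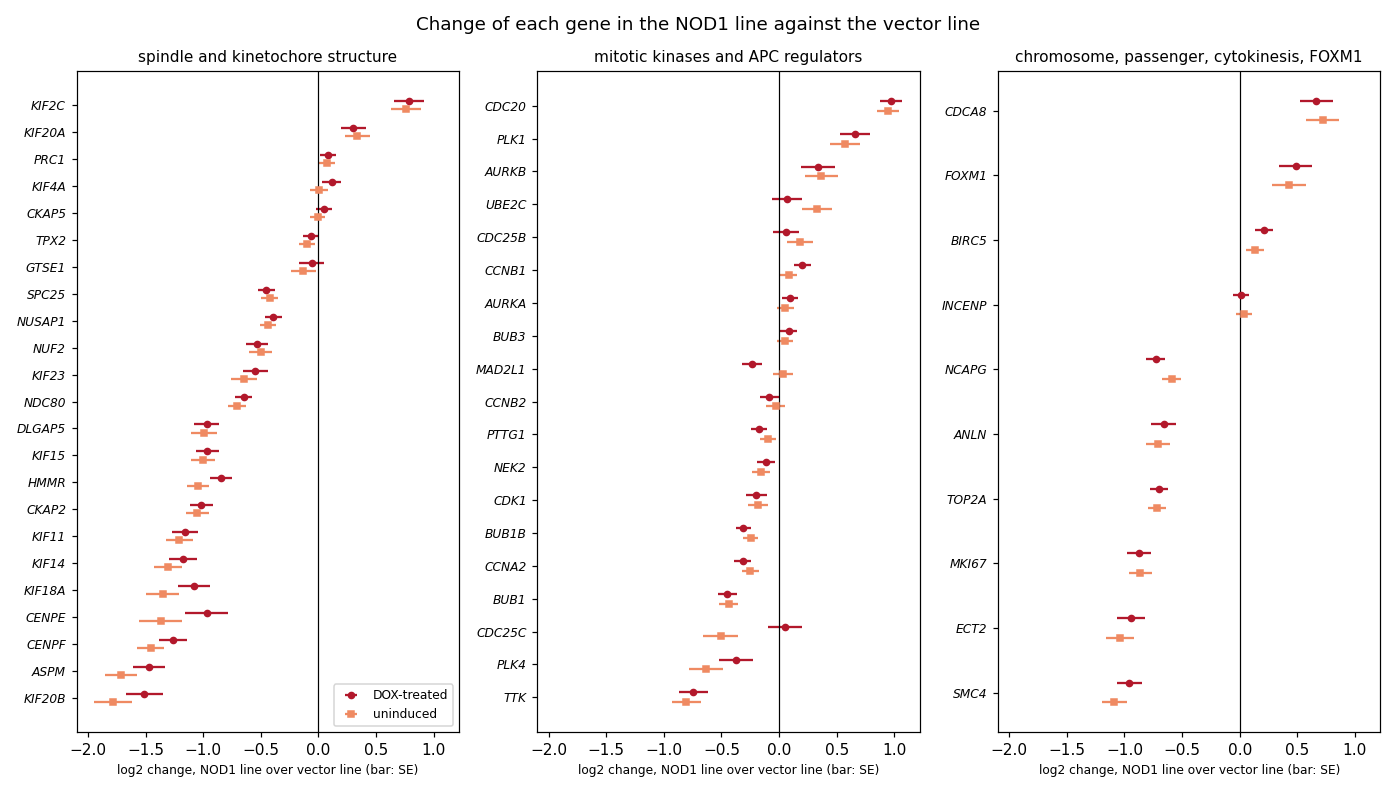
Log2 change of each of the 52 genes in the NOD1 line over the vector line, with DOX (circles) and without (squares), in 3 panels by role; bars are standard errors of the limma fit. In the structure panel 16 of 23 genes lie well below 0, from SPC25 and NUSAP1 down to KIF20B at -1.78, while most regulators lie near 0 and CDC20 reaches 0.94 without DOX.

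ASPM organises microtubules at the spindle poles. Its probe set read 11.06, 10.89, 11.00 and 11.10 in the DOX-treated NOD1 arrays and 11.15, 10.14, 11.10 and 10.69 in the uninduced NOD1 arrays. The NLRP4 line gave 12.17, 12.28, 12.28 and 12.45 with DOX and 12.35, 12.29, 12.51 and 12.32 without, and the vector line 12.55, 12.45, 12.48 and 12.45 with DOX and 12.38, 12.58, 12.43 and 12.55 without. All 8 NOD1-line arrays lie below the other 16, and the lowest is uninduced replicate 2. The change was -1.47 with DOX (SE 0.139, adjusted p = 4.91e-08) and -1.72 without (SE 0.139, adjusted p = 6.07e-09), a 3.29-fold lower level in the uninduced NOD1 line.

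CENPF, a large coiled-coil protein that joins the kinetochore in G2, read 12.53, 12.43, 12.68 and 12.60 in the DOX-treated and 12.78, 11.95, 12.56 and 12.32 in the uninduced NOD1 arrays. It read 13.57, 13.71, 13.73 and 13.81 in the DOX-treated and 13.65, 13.69, 13.85 and 13.60 in the uninduced NLRP4 arrays, and 13.90, 13.70, 13.86 and 13.82 in the DOX-treated and 13.77, 13.81, 13.86 and 13.99 in the uninduced vector arrays. The NOD1 line again lies wholly below both other lines. The change was -1.26 with DOX and -1.45 without (SE 0.118 each, adjusted p = 4.35e-08 and 6.07e-09). CENPE, the kinesin that carries chromosomes toward the spindle equator, changed by -0.97 and -1.37 in the same order. Of the Ndc80 complex, which grips microtubules at the kinetochore, NDC80 changed by -0.65 and -0.70, NUF2 by -0.53 and -0.50, and SPC25 by -0.45 and -0.42, all called.

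KIF20B is a kinesin that acts at the end of cell division. It read 10.63, 10.70, 10.67 and 10.75 in the DOX-treated and 10.67, 10.08, 10.67 and 10.42 in the uninduced NOD1 arrays. The NLRP4 line gave 11.42, 11.99, 11.67 and 12.26 with DOX and 11.98, 12.20, 12.46 and 11.74 without, and the vector line 12.56, 11.96, 12.15 and 12.12 with DOX and 12.19, 12.21, 12.24 and 12.34 without. Every NOD1-line array is below every other array, and the NLRP4 arrays spread more than the uninduced vector arrays. KIF20B had the lowest log2 change of the 52 genes in both comparisons, -1.51 with DOX (SE 0.164, adjusted p = 3.41e-07) and -1.78 without (SE 0.164, adjusted p = 3.85e-08), or 2.85-fold and 3.44-fold lower.

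HMMR, a spindle assembly factor, read 12.37, 12.32, 12.45 and 12.27 in the DOX-treated NOD1 arrays, against 13.26, 13.20, 13.20 and 13.13 in the DOX-treated vector arrays. Without DOX it read 12.22, 11.86, 12.34 and 11.95 in the NOD1 line, against 13.12, 13.05, 13.18 and 13.19 in the vector line. KIF14, a kinesin of the midbody, read 10.78, 10.89, 10.55 and 10.77 against 11.97, 11.89, 11.87 and 11.95 with DOX, and 10.77, 10.15, 10.88 and 10.18 against 11.75, 11.70, 11.89 and 11.88 without, NOD1 line before vector line. In both genes no NOD1-line array reaches a vector array. HMMR changed by -0.85 with DOX and -1.04 without (SE 0.092 each, adjusted p = 3.60e-07 and 1.93e-08), and KIF14 by -1.17 and -1.31 (SE 0.122 each, adjusted p = 2.06e-07 and 4.60e-08).

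CKAP2, a microtubule-associated protein of the spindle, read 11.97, 12.04, 11.84 and 11.97 in the DOX-treated NOD1 arrays, against 13.09, 12.96, 12.94 and 12.90 in the DOX-treated vector arrays. KIF11, the kinesin that pushes the spindle poles apart, read 10.95, 10.84, 10.97 and 10.83, against 12.09, 12.05, 12.02 and 12.07 in the same groups. Each gene's groups are separated by more than any gap within a group. The DOX-treated changes were -1.02 for CKAP2 (SE 0.099, adjusted p = 8.01e-08) and -1.16 for KIF11 (SE 0.115, adjusted p = 1.05e-07), and the uninduced ones -1.05 and -1.21. KIF18A, which dampens chromosome movement at the spindle equator, changed by -1.08 with DOX and -1.35 without. KIF15, a motor that can stand in for KIF11, changed by -0.96 with DOX, and DLGAP5, which stabilises kinetochore microtubules, by -0.97 with DOX and -0.99 without. KIF23, a motor of the central spindle, changed by -0.55 and -0.65, and NUSAP1, which bundles microtubules, by -0.39 and -0.44. All of these were called in both comparisons.

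Structure genes also included exceptions. KIF2C, a kinesin that takes microtubules apart, read 10.76, 11.14, 10.87 and 11.21 in the DOX-treated and 10.59, 11.13, 10.65 and 11.08 in the uninduced NOD1 arrays. It read 9.76, 10.01, 10.17 and 9.98 in the DOX-treated and 10.22, 10.14, 10.09 and 10.12 in the uninduced NLRP4 arrays, and 10.36, 10.06, 10.32 and 10.10 in the DOX-treated and 9.83, 10.18, 10.16 and 10.24 in the uninduced vector arrays. All 8 NOD1-line arrays lie above the other 16. The change was 0.79 with DOX and 0.76 without (SE 0.128 each, adjusted p = 5.27e-05 and 8.52e-05). KIF20A, which moves the passenger complex to the central spindle, read 11.42, 11.41, 11.31 and 11.52 against 11.28, 11.09, 11.04 and 11.05 with DOX, and 11.25, 11.48, 11.10 and 11.71 against 10.98, 11.02, 11.15 and 11.05 without, NOD1 line before vector line. The uninduced groups overlap. The changes were 0.30 and 0.34 (SE 0.110 each, adjusted p = 0.0455 and 0.0258). The DOX-treated call was lost without any of DOX-treated vector replicates 2, 3 or 4 or DOX-treated NOD1 replicates 1, 2 or 4 (adjusted p from 0.0763 to 0.124). The uninduced call was lost when any of uninduced vector replicates 1, 2 or 4 or uninduced NOD1 replicates 2 or 4 was left out (adjusted p from 0.0523 to 0.135). The 5 structure genes not called in either comparison were TPX2, which activates Aurora A, the microtubule polymerase CKAP5, the chromosome motor KIF4A, the central spindle bundler PRC1 and GTSE1. Their changes lay between -0.13 for uninduced GTSE1 and 0.11 for DOX-treated KIF4A.

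**Figure D2:**
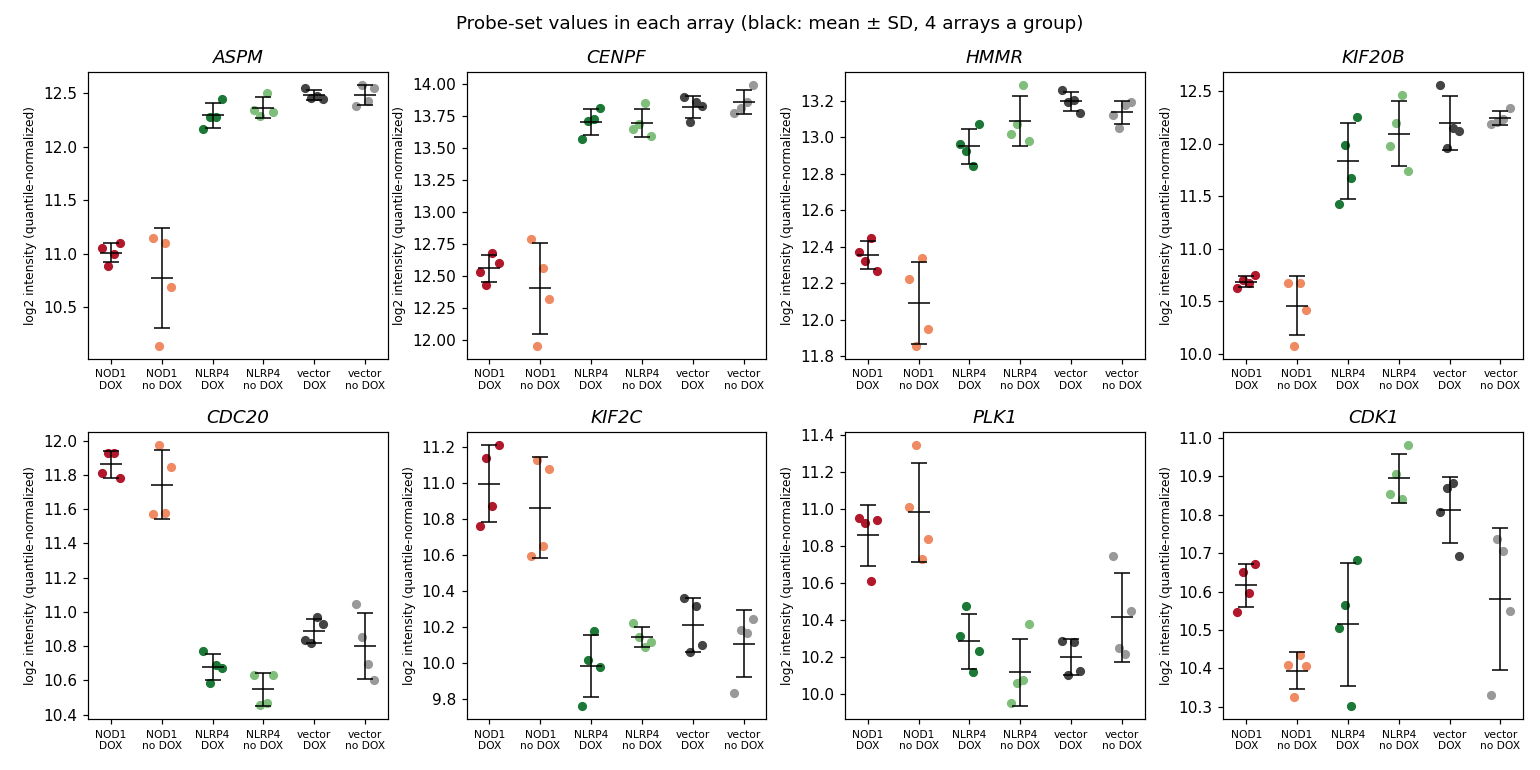
Quantile-normalized log2 signal of 8 genes in each of the 24 arrays, by line and DOX; black marks are group means ± SD over 4 arrays, and each panel has its own axis. For ASPM, CENPF, HMMR and KIF20B the 8 NOD1-line arrays are below the other 16, for CDC20 and KIF2C they are above, for PLK1 1 uninduced vector array reaches them, and CDK1 overlaps.

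Among the regulators CDC20, the APC activator that starts anaphase, had the highest change. It read 11.81, 11.93, 11.93 and 11.78 in the DOX-treated and 11.57, 11.97, 11.58 and 11.85 in the uninduced NOD1 arrays. The NLRP4 line gave 10.77, 10.59, 10.69 and 10.67 with DOX and 10.63, 10.46, 10.47 and 10.63 without, and the vector line 10.84, 10.82, 10.97 and 10.93 with DOX and 11.05, 10.85, 10.70 and 10.60 without. The lowest NOD1-line array is above the highest of the other 16. CDC20 changed by 0.97 with DOX and 0.94 without (SE 0.096 each, adjusted p = 9.83e-08 and 1.58e-07), or 1.96-fold and 1.92-fold higher.

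PLK1, the Polo-like kinase of mitotic entry, spindle assembly and cytokinesis, read 10.95, 10.93, 10.61 and 10.94 in the DOX-treated NOD1 arrays, against 10.29, 10.10, 10.28 and 10.12 in the DOX-treated vector arrays. Without DOX it read 11.01, 11.35, 10.73 and 10.84 in the NOD1 line, against 10.74, 10.25, 10.22 and 10.45 in the vector line. The DOX-treated groups are apart, and the uninduced groups overlap at 1 array of each. The change was 0.66 with DOX and 0.57 without (SE 0.130 each, adjusted p = 4.24e-04 and 0.00192). The regulators called lower in both comparisons were 3 checkpoint genes and a cyclin. TTK, which starts the spindle checkpoint, changed by -0.74 with DOX and -0.81 without. BUB1 and BUB1B, kinetochore proteins of the same checkpoint, changed by -0.45 and -0.31 with DOX and by -0.44 and -0.25 without. Cyclin A2 (CCNA2) changed by -0.32 and -0.25, and without uninduced NOD1 replicate 2 its uninduced change was -0.16 (adjusted p = 0.105).

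The remaining regulator calls held in 1 of the comparisons. PLK4, the kinase of centriole duplication, changed by -0.63 without DOX (adjusted p = 0.00223) and by -0.37 with DOX (adjusted p = 0.0687). CDC25C, a phosphatase that activates CDK1, changed by -0.51 without DOX (adjusted p = 0.0137) and by 0.05 with DOX (adjusted p = 0.860). Its call was lost without uninduced vector replicate 2 or uninduced NOD1 replicates 1 or 3 (adjusted p from 0.0525 to 0.0598). MAD2L1, which inhibits CDC20 at the checkpoint, changed by -0.24 with DOX (adjusted p = 0.0436) and by 0.03 without (adjusted p = 0.831), and its call was lost without DOX-treated vector replicates 1 or 2 or DOX-treated NOD1 replicates 1, 3 or 4 (adjusted p from 0.0850 to 0.146). The difference between these comparisons was tested itself, as the effect of DOX in the NOD1 line less its effect in the vector line, and none of the 3 was called. It was 0.26 for PLK4, 0.56 for CDC25C and -0.27 for MAD2L1, each with an adjusted p of 1.00. The other 10 regulators were called in neither comparison. They were CDK1, the cyclins CCNB1 and CCNB2, the phosphatase CDC25B, the Aurora kinases AURKA and AURKB, the centrosome kinase NEK2, the checkpoint protein BUB3, the APC ubiquitin-conjugating enzyme UBE2C and securin (PTTG1), whose changes lay between -0.20 for DOX-treated CDK1 and 0.37 for uninduced AURKB.

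Of the chromosome genes, SMC4 and NCAPG, condensin subunits that compact chromosomes, changed by -0.96 and -0.73 with DOX and by -1.09 and -0.59 without. The cytokinesis genes ECT2, which activates RhoA at the cell equator, and ANLN, a scaffold of the contractile ring, changed by -0.94 and -0.66 with DOX and by -1.04 and -0.71 without. TOP2A, which untangles sister DNA, changed by -0.70 and -0.72, and MKI67, the coat protein of mitotic chromosomes, by -0.87 and -0.86. All 6 were called in both comparisons, with every NOD1-line array below the other 16. The passenger complex directs Aurora B. Calls differed among its members, whose changes were not tested against one another.

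CDCA8 (borealin), the passenger subunit called in both comparisons, read 10.95, 11.20, 11.26 and 11.08 in the DOX-treated NOD1 arrays, against 10.43, 10.34, 10.46 and 10.59 in the DOX-treated vector arrays. Without DOX it read 10.74, 11.34, 11.23 and 11.56 in the NOD1 line, against 10.84, 10.52, 10.34 and 10.30 in the vector line. The groups are apart with DOX and overlap without. CDCA8 changed by 0.66 and 0.72 (SE 0.141 each, adjusted p = 9.00e-04 and 4.47e-04). INCENP, the passenger scaffold, changed by 0.01 and 0.03 and survivin (BIRC5) by 0.21 and 0.13, and neither was called. Against the NLRP4 line the BIRC5 probe set used here was called higher in a limma fit of all 1-symbol probe sets. It changed there by 0.32 with DOX and 0.27 without (adjusted p = 0.00439 and 0.0152). FOXM1, the transcription factor of G2/M genes, read 10.35, 10.48, 10.62 and 10.59 in the DOX-treated NOD1 arrays, against 10.09, 9.89, 9.98 and 10.14 in the DOX-treated vector arrays. It read 10.63, 11.00, 10.20 and 10.19 against 10.18, 9.96, 10.08 and 10.08 without DOX in the same order. In both comparisons the NOD1 arrays lie above the vector arrays, without DOX only narrowly. FOXM1 changed by 0.48 and 0.43 (SE 0.146 each, adjusted p = 0.0148 and 0.0320). Without uninduced NOD1 replicate 2, its highest array, the uninduced change was 0.26 (adjusted p = 0.178), and the call was also lost without uninduced NOD1 replicate 1 or uninduced vector replicates 2, 3 or 4 (adjusted p from 0.0595 to 0.0838).

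Over both treatments, all 8 NOD1-line arrays lay below the other 16 for 24 of 52 members (46.2%), against 5.33% of all genes, and above them for 2 members (3.85%), CDC20 and KIF2C, against 4.59% of all genes. The 24 were 15 of 23 structure genes, 3 of 19 regulators and 6 of 10 genes of the third group. The regulators among them were TTK, BUB1 and BUB1B. The median share of variance that lay between the 6 groups was 88.2% for structure genes, 62.6% for regulators and 87.9% for the third group, against 34.2% over all genes.

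**Figure D3:**
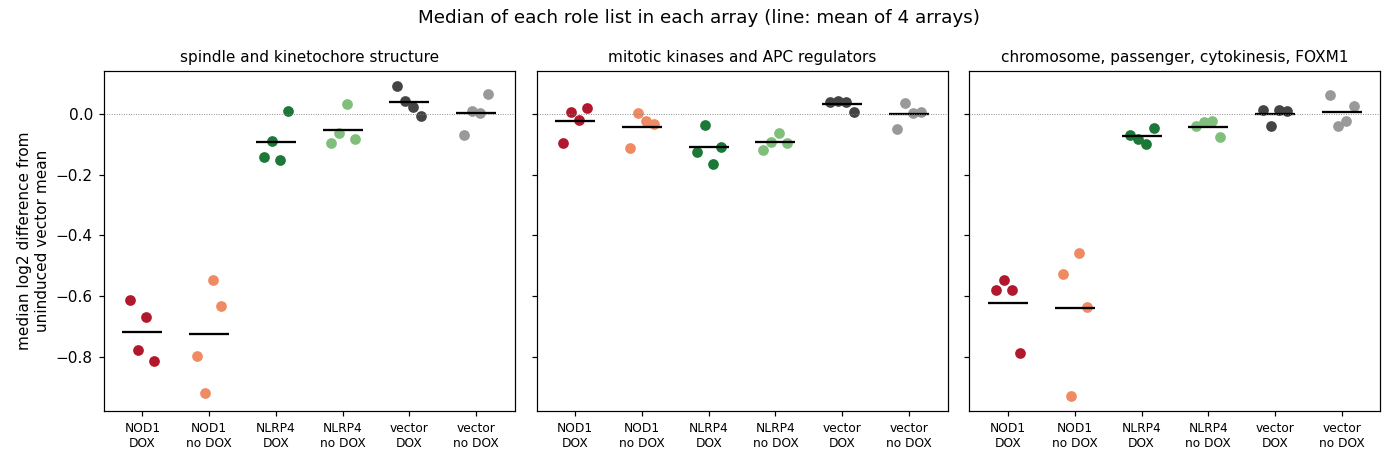
Median, over each role list, of the log2 difference from the uninduced vector mean in each array; lines are means of 4 arrays. Structure genes lie between -0.92 and -0.55 in the NOD1 line, against -0.07 to 0.09 in the vector line, while the regulators of all 6 groups lie between -0.17 and 0.04.

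Between the NLRP4 line and the vector line no member was called. Without DOX limma called 0 of 52, against 0.0163% of all genes, and with DOX 0 of 52, against 0.038% of all genes. At an unadjusted p under 0.05 there were 1 higher and 6 lower without DOX, against 2.40% and 2.56% of all genes, and 0 higher and 14 lower with DOX, against 2.90% and 3.21%. Of those 14, 9 were regulators and 5 structure genes. The members' median was -0.06 without DOX and -0.13 with DOX, where 7 of 52 were above 0, against 51.9% of all genes. The DOX-treated median stood at -0.20 in the values as deposited, in which the median gene stood at 0.12, and at -0.34 in arrays centred on their medians. The lowest p in both comparisons belonged to CDK1, the kinase that drives entry into mitosis.

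CDK1 read 10.51, 10.57, 10.30 and 10.68 in the DOX-treated and 10.85, 10.90, 10.84 and 10.98 in the uninduced NLRP4 arrays. It read 10.55, 10.65, 10.60 and 10.67 in the DOX-treated and 10.41, 10.32, 10.44 and 10.41 in the uninduced NOD1 arrays, and 10.81, 10.87, 10.88 and 10.69 in the DOX-treated and 10.33, 10.74, 10.70 and 10.55 in the uninduced vector arrays. The uninduced NLRP4 arrays lie above the DOX-treated NLRP4 and the uninduced vector arrays, and the DOX-treated NLRP4 arrays lie just below the DOX-treated vector arrays. NLRP4 over vector was -0.30 with DOX and 0.31 without (SE 0.087 each, adjusted p = 0.517 and 0.567).

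DOX changed no member at the adjusted threshold in any line. With DOX 0 of 52 were called in the NOD1 line, against 0.0109% of all genes, 0 in the NLRP4 line, against 0.0163%, and 0 in the vector line, against 0% of all genes. At an unadjusted p under 0.05 limma gave 6 higher and 1 lower in the NOD1 line, against 2.84% and 2.93% of all genes. It gave 0 higher and 3 lower in the NLRP4 line, against 4.06% and 3.99%, and 1 higher and 0 lower in the vector line, against 1.67% and 1.71%. The members' median DOX change in the NLRP4 line depended on the scaling. It ran from -0.04 to -0.01 in quantile-normalized values with 1 array left out. As deposited it was -0.105, where the median gene stood at 0.26, and in centred arrays -0.42, where the median gene stood at -0.06. The lowest p in the NOD1 line belonged to CDC25C, which read 9.44, 9.63, 9.01 and 9.55 with DOX, against 8.69, 9.16, 8.69 and 9.23 without. Its groups overlap, and the DOX change was 0.46 (SE 0.150, adjusted p = 0.632). The lowest p in the other lines was again that of CDK1, at -0.38 with DOX in the NLRP4 line (adjusted p = 0.322) and 0.23 in the vector line (adjusted p = 0.999). The 3 differences between DOX effects also called no member, against 0.00543% of all genes for NOD1 minus vector, 0.00543% for NLRP4 minus vector and 0.0109% for NOD1 minus NLRP4. At an unadjusted p under 0.05 they gave 2, 2 and 6 members in that order, against 4.05%, 4.92% and 8.01% of all genes. CDK1 had the lowest p for NLRP4 minus vector (-0.61, SE 0.123, adjusted p = 0.290) and for NOD1 minus NLRP4 (0.60, SE 0.123, adjusted p = 0.150).

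The NOD1 line was also set against the NLRP4 line, which shares its NOD1 arrays with the comparisons above. Without DOX 28 members were called lower and 11 higher, against 12.8% and 14.1% of all genes (27.0% in either direction). With DOX 26 were called lower and 10 higher, against 12.0% and 13.4% (25.4% in either direction). Structure genes again had 16 called lower in each, with 2 called higher without DOX and 3 with DOX. Regulators had 6 lower and 6 higher without DOX and 4 of each with DOX. Beside CDC20 and PLK1, the regulators called higher in both were the mitotic cyclin CCNB1 and Aurora A (AURKA). The DOX-treated split depended on the scaling: centred arrays gave 13 lower and 14 higher.

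Within the uninduced NOD1 group the arrays were uneven. In uninduced NOD1 replicate 2, 26 of the 27 members called lower in the DOX-treated lines lay below their uninduced NOD1 mean. The median deviation of the 27 was -0.31 in that array. The DOX-treated change takes no group mean from replicate 2. The calls do use replicate 2, through the normalization and a variance fitted over all arrays, so the choice of the 27 is not independent of it. In replicate 3 of the same group 0 of 27 lay below the uninduced NOD1 mean, with a median deviation of 0.19. Across the 52 members the deviation of replicate 2 correlated with the DOX-treated NOD1-over-vector change at r = 0.888, and that of replicate 3 at -0.812, against 0.390 and -0.368 across all genes. Replicate 1 of that group gave -0.641. Arrays of the other lines also deviated this way, each set against the NOD1-over-vector change of the other treatment. There r was -0.650 in DOX-treated NLRP4 replicate 4 and 0.563 in uninduced NLRP4 replicate 4. In the vector line it ran from -0.425 to 0.378. These points are genes of the same arrays, the 4 deviations of a group sum to 0, and the values are a description. The structure genes' median deviation was -0.26 in uninduced NOD1 replicate 2 and 0.15 in replicate 3 of that group, and the regulators' was 0.04 and 0.00 in the same arrays. Replicate 2 is among the 4 dimmest arrays of the series, with a median deposited signal of 8.30 over all probe sets in a range of 8.06 to 8.85, and the part of this in its values was not tested. Replicates 2 and 3 of the uninduced NOD1 group had the lowest correlation of any same-group pair, at r = 0.982 across genes. Uninduced vector replicates 1 and 2 also stood at 0.982, so this was not particular to the NOD1 line. Without uninduced NOD1 replicate 2 the members' median in the uninduced comparison moved to -0.28, against -0.34 with it. With DOX in the NOD1 line 21 of 23 structure genes stood above 0, against 48.4% of all genes, with a median of 0.10, and without uninduced replicate 2 it was 18 of 23, with a median of 0.08. The median of all members was 0.07 with that array and 0.03 without it, where 33 of 52 stood above 0, against 39 with it.

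The genomic span of a gene, introns included, was taken from RefSeq annotation of GRCh38.p14 for 52 of 52 members. This was looked at after the values were seen. The median span was 48.2 kb for structure genes, 16.5 kb for regulators and 29.6 kb for the third group, against 27.3 kb over 16903 protein-coding genes. In the uninduced lines the 28 members called lower had a median span of 44.3 kb (7.44 to 107 kb), the 6 called higher 14.3 kb (4.22 to 27.9 kb) and the 18 not called 18.3 kb (4.31 to 131 kb). CDC20 spans 4.22 kb and PLK1 11.5 kb, whereas CENPF spans 61.4 kb, ASPM 62.5 kb and KIF20B 73.3 kb. Long structure genes were not all lower, since KIF4A at 131 kb, CKAP5 at 103 kb and TPX2 at 62.5 kb were not called.

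The role lists were then split at the members' median span of 30.5 kb. In the uninduced lines, at or above it, 14 of 18 structure genes, 4 of 4 regulators and 4 of 4 of the third group were called lower and 0 higher. Below it, 2 of 5 structure genes, 2 of 15 regulators and 2 of 6 of the third group were called lower, and 2 of each list higher. Protein-coding genes as a whole had 1596 called lower and 892 higher of 7882 at or above that span, and 496 lower and 1458 higher of 9021 below it. The correlation of log2 span with log2 change was -0.65 across members and -0.20 across protein-coding genes without DOX, and -0.60 and -0.19 with DOX. For the NLRP4 line over the vector line it was -0.10 and -0.05 with DOX and 0.05 and 0.04 without. These genes share arrays and fit, and span moves with role. Transcript length was not examined, and the part of span in the changes was not tested.

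**Figure D4:**
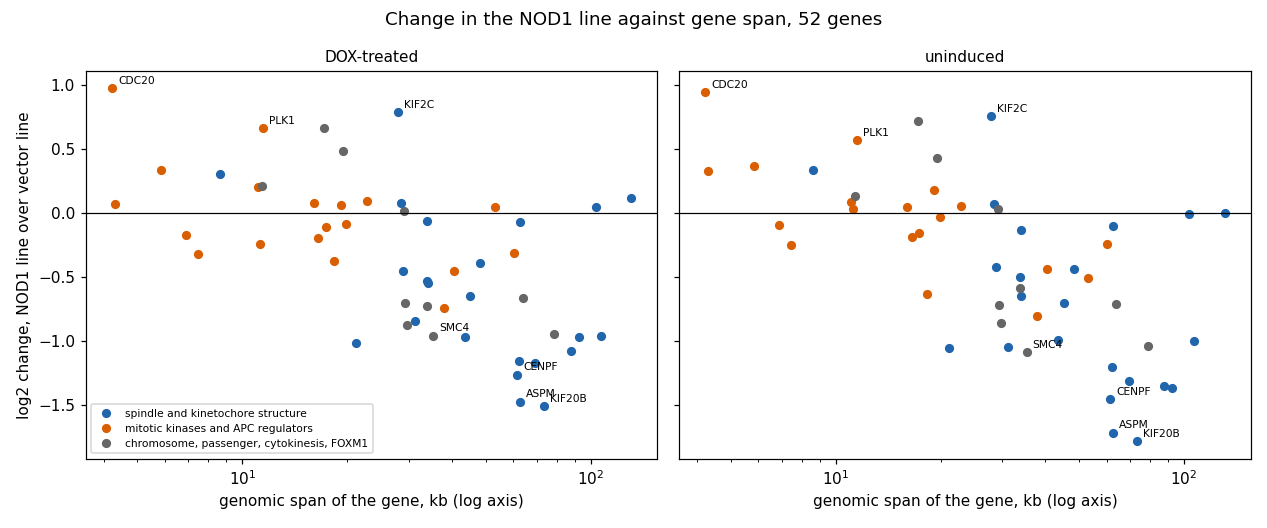
Log2 change in the NOD1 line over the vector line against genomic span in kb (log axis) for 52 genes coloured by role, with DOX on the left and without on the right. Without DOX the 6 genes called higher span 4.22 to 27.9 kb and the 28 called lower 7.44 to 107 kb.

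Related genes outside the 52 were counted from lists chosen with earlier results known, against the backgrounds given above for the same 2 comparisons. Among 31 other kinetochore genes 12 were called lower and 3 higher in the uninduced NOD1 line over the vector line (median -0.22), and 16 lower and 2 higher with DOX (median -0.32). Without DOX the inner kinetochore protein CENPC changed by -1.22, CENPK by -0.98 and SGO2, a shugoshin that guards cohesin, by -1.32. Condensin and cohesin genes outside the members moved the same way, with 12 of 19 called lower in both comparisons and 2 and 1 called higher (median -0.42 without DOX). The cohesin subunit SMC3 changed by -1.14, the condensin subunit SMC2 by -1.18 and the cohesin subunit STAG2 by -0.95.

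The other lists had as many or more genes called higher than lower without DOX. Other spindle genes had 6 called lower and 6 higher of 28 without DOX, among them the dynein regulator NUDC at 0.75 and the augmin subunit HAUS6 at -0.96. APC subunits and inhibitors had 2 lower and 5 higher of 20, with MAD2L2 at 0.84 and the APC inhibitor FBXO5 at -0.55. Regulators of the DREAM, MuvB and E2F kind had 5 lower and 8 higher of 27, with the retinoblastoma gene RB1 at -1.09 and the NF-Y subunit NFYC at 0.93. DNA replication and S phase genes had 2 lower and 13 higher of 40, with the origin subunit ORC6 at 0.66 and the DNA polymerase alpha subunits POLA2 at 0.78 and POLA1 at -0.67. With DOX these 4 lists had 6 lower and 7 higher, 3 lower and 8 higher, 7 lower and 6 higher, and 1 lower and 15 higher. No gene of these lists was called in the NLRP4 line against the vector line. Of all genes 0.0163% were called there without DOX and 0.038% with DOX, so the lists were near that share.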

How the data were processed

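Total RNA from 24 wells was measured on 1 Affymetrix Human Gene ST array each. The authors deposited log2 signals per probe set; per the submitters' processing notes RMA and oligo made them, with versions, build and step order not given in the sources used here. Array medians of the deposited log2 values ran from 8.06 to 8.85, so quantile normalization (limma 3.58.1, R 4.3.3) of the gene table was the main setting. Of 33297 probe sets, 19460 had 1 gene symbol, 1754 several and 12083 none, and only those with 1 symbol were used, named through Entrez IDs in RefSeq annotation of GRCh38.p14 (19429 matched). The probe set with the highest mean stood for each of 18417 genes, and 769 genes had more than 1. Among members BIRC5 had more than 1, and KIF4A also lies on a probe set with several symbols. Arrays of 1 group correlated at 0.982 to 0.993, and no pair was identical.

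Groups came from the labels. Each gene was fitted as 6 group means over all 24 arrays (lmFit, eBayes), which gave 12 comparisons. Benjamini-Hochberg adjustment ran over all genes and calls were made at 0.05. The fit was tested on simulated data, with independent noise for each gene and array and known changes added to the uninduced NOD1 group. Such noise holds no deviations shared among members, so the simulation does not cover them. Exact two-sided permutation tests of NOD1 and NLRP4 in the induced lines gave p = 0.0286 each, the smallest possible with 4 against 4. No set test was run, and lists are described by counts and medians. The members and lists were chosen with earlier results of these data known. Any member may be named. In each comparison of a line with the vector line, the 5 called members of smallest p per direction, or failing a call the member of smallest p, are shown array by array; from each further list at most 3 called genes are named. Alternatives were values as deposited, centred arrays, only the arrays compared, array weights, mean over probe sets, a filter on dim genes, array median as a covariate, each array left out in turn, and, added after the data were seen, no 4 dimmest arrays, with every called member of the NOD1 and vector comparisons followed through all of them. The number of arrays limits the precision.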

Additional observations from a re-analysis of the deposited data

Results flagged for a closer look

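In 126 groups of 4 arrays, over the genes given array by array, the induced genes and the list medians, 4 had an array that lay far from the other 3. Chance gives about 5.0% of groups, so this is near or below that level. PLK1 was 10.61 in DOX-treated NOD1 replicate 3, against 10.93 to 10.95 in the other arrays of that group. The median of the mitotic regulators was 0.00677 in DOX-treated vector replicate 4, against 0.0385 to 0.0432. The median of the chromosome, passenger, cytokinesis and FOXM1 genes was -0.787 in DOX-treated NOD1 replicate 4, against -0.580 to -0.549, and -0.0403 in DOX-treated vector replicate 2, against 0.0104 to 0.0138. DOX-treated NOD1 replicate 4 is among the 4 dimmest arrays, and the part of this in its value was not tested.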

How the results depend on the processing

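Counts of members called in either direction stayed within 1.5 times of the reported ones in the alternatives run, but the split did not for the DOX-treated NOD1 line over the NLRP4 line, where centred arrays gave 14 higher and 13 lower against 10 and 26. For the NOD1 line over the vector line they ran from 30 to 34 without DOX and 27 to 37 with DOX, and from 31 to 35 and 31 to 33 with 1 array left out. Against the NLRP4 line they ran from 31 to 39 and 27 to 36, and from 34 to 40 and 32 to 36 with 1 array left out. The NLRP4 line against the vector line, DOX within each line and the differences of DOX effects gave 0 in every fit. The regulators' median in the DOX-treated NOD1 line over the vector line changed sign, at 0.0125 in the values as deposited and 0.0575 in centred arrays. The cause was not tested. Without DOX, centred arrays gave lower NOD1-over-vector medians than reported, at -0.4675 for all members and -0.855 for structure genes. Regulators stood at -0.14 and the third group at -0.79375 there, where the median gene stood at -0.0575. Of the members called in the NOD1 line over the vector line, 27 of 33 with DOX and 29 of 34 without kept their call in all 16 alternatives run for each, and none changed sign. With DOX the call of KIF20A and MAD2L1 was lost in 10 and 9 alternatives, and that of SPC25, NUSAP1, CCNA2 and BUB1B in centred arrays. Without DOX it was lost in 9 for KIF20A and FOXM1, 4 for CCNA2 and CDC25C, and 3 for BUB1B. In the uninduced comparison the change of KIF20A was 0.32 as deposited, 0.19 in centred arrays, 0.34 with only the arrays compared and 0.29 without the 4 dimmest arrays, and 0.23 to 0.43 with 1 array left out. In the values as deposited the median gene shifted by 0.26 with DOX in the NLRP4 line and by 0.12 and -0.21 in the NOD1 line over the NLRP4 line without and with DOX, so changes there are relative to those shifts. No paired analysis was possible because the labels number the arrays consecutively and share no replicate numbers between groups. No background signal was available, so how far dim genes limit the folds is not known.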
